A study of Homo sapiens with 6 samples.

Results

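Clustered histone genes were followed in subcutaneous SW1990 tumors of mice, where SW1990 is a cell line from a human adenocarcinoma of the pancreas. The members were the genes whose symbol starts with HIST1H, HIST2H, HIST3H or HIST4H and does not end in P, PS or PS with a digit, 76 of 58735 genes in the tables. Of these, 70 are annotated as protein-coding and 6 as pseudogenes (HIST2H2BA, HIST2H2BB, HIST2H2BC, HIST2H2BD, HIST2H3DP1 and HIST3H2BA), and 14 rows of the same families were left out by that ending. The NSCT group consisted of 3 tumors injected with normal saline solution, and the SKOV3 HD group of 3 tumors injected with SKOV3, a human ovarian cancer line, at the study's high dose. Both groups were made from the same SW1990 line, so the tumors of a group are separate xenografts of 1 line, and no tumor was free of injection. The study states 3 biological replicates per group. The comparison asks what injection of the ovarian cancer cells changes in the gene expression of the pancreatic tumors.

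Histone proteins H2A, H2B, H3 and H4 form the core around which DNA is wound, and H1 binds the linker DNA. Most of their mRNA is made during S phase from gene clusters on chromosomes 6 and 1, while replication-independent variants such as H2AFZ and H3F3A are made from single genes throughout the cell cycle. Replication-dependent histone mRNA is the main class of animal mRNA that normally has no poly(A) tail. It ends a few bases after a stem-loop that is bound by the protein SLBP, and some of these genes can also give longer, polyadenylated transcripts. The labels name the measured molecule as poly(A) RNA, so the values describe histone transcripts in that fraction.

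The stem-loop is shown first because it is the feature that sets these mRNAs apart. It was found in 4 forms. The stem separated H4 members from H2A, H2B and H3 members, which shared theirs. Each line below gives the most highly expressed member that carries 1 of the 4 forms, read 5′ to 3′ from GENCODE release 29 transcripts. Capitals mark the 2 arms of the stem, the loop stands between them, and 7 bases are shown on either side.

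HIST3H2A: acataaaGGCTCTtttcAGAGCCacctact

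HIST1H2BC: ccccaaaGGCTCTtttaAGAGCCacccaga

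HIST4H4: tccaaaaGGCCCTtttcAGGGCCcccaaac

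HIST1H4I: ctaaaaaGGCCCTttttAGGGCCcctaagc

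In hg38 the stem-loop of HIST3H2A lies at chr1:228457369-228457384 on the minus strand and that of HIST1H2BC at chr6:26123472-26123487 on the minus strand. That of HIST4H4 lies at chr12:14770724-14770739 on the minus strand and that of HIST1H4I at chr6:27139654-27139669 on the plus strand. All 4 lie in exons, past the coding bases. The search was for a stem of 6 bases that opens with GG, a loop of 4 bases that opens with TT, and a second arm that is the reverse complement of the first, on the transcript's own strand. It was met in 31 members, of which 30 are protein-coding and 1 is the pseudogene HIST3H2BA. The 8 H4 members with a match shared 1 stem and the 23 H2A, H2B and H3 members shared another, with no stem in both. No H1 member held a match to these letters, but HIST1H1A, HIST1H1B, HIST1H1C and HIST1H1D have models of coding bases alone and could not be searched past them. Among protein-coding genes outside the members, 124 of 19852, or 0.625%, held a match anywhere in a transcript.

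A stem-loop could be found only where the gene model reaches past the coding bases. In 32 of the 70 protein-coding members the model holds coding bases alone, and 0 of these 32 held a match. In the 38 with untranslated bases, 30 did, or 78.9%. The distance past the stem-loop was read only from transcripts that carry it, taking the longest distance of each gene. By this measure 9 of those 30 end within 100 bases of the stem-loop and 21 run farther, up to 1917 bases past it. Fragments were found mostly in the second kind, with 2367 in the 6 tumors over the 21 longer members against 145 over the 9 shorter ones. Among the 21, HIST1H2BE, HIST1H2BN and HIST1H4H also have a transcript that ends within 100 bases, at 1, 5 and 18 bases. They held 22, 74 and 44 of the 2367 fragments. HIST1H2BD, counted among the 9, held 94 of the 145, and its model also has a spliced transcript and a poly(A) signal. Such longer models also offer more bases in which a fragment can be counted. Their median level per length was 0.162 FPKM (fragments scaled by exon length in kilobases and by library size) against 0.119 FPKM for the shorter ones.

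Clustered histone genes were low in these libraries, which held 13585284 to 15258633 fragments each. A pair of libraries stood apart on the first principal component of all tested genes, which held 33.3% of the variance, with NSCT 1 at -44.7, SKOV3 HD 1 at the other end at 24.5 and the other 4 tumors from 1.17 to 9.66. Over the 6 tumors the median level of the 70 protein-coding members was 0.147 FPKM, against 1.68 FPKM over all 19951 protein-coding genes. At least 1 FPKM was reached by 11 of the 76 members and at least 10 FPKM by 1, HIST1H2BK. All members together held 5209 fragments in the 6 tumors. The 5 members with most fragments held 59.6% of them.

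Listed at 0 in every tumor were 18 members, 23.7%, and 25 had 1 to 9 fragments in the 6 tumors together. Of all genes 47.9% were at 0. Among protein-coding genes alone it was 21.4% of the members, against 16.3% of all protein-coding genes. The 18 included HIST1H2AA and HIST1H2BA, which encode testis forms of H2A and H2B, and HIST1H1T, the testis form of H1. A count of 0 allows up to 3 fragments in a library, which in the smallest library is 0.0915 FPKM for HIST1H3G with its long model and 0.743 FPKM for HIST1H4G with its short one. These limits cover counting error only. Another 4 of the 18, HIST1H3D, HIST1H2AD, HIST1H2AK and HIST1H2AM, lie over at least 85% of their exon bases inside the exons of another annotated gene. The sources used here do not give how fragments that fall in more than 1 gene were counted, and the part of this setting in these zeros was not tested.

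Genes that act around histones were well measured in the same libraries. The median over 12 replication-independent histone genes was 31.8 FPKM, over 17 S-phase genes 22.1 FPKM, over 16 histone chaperones 20.03 FPKM and over 18 genes of histone mRNA transcription, processing and decay 9.13 FPKM. PCNA, the sliding clamp of DNA replication, was at 214, 167 and 158 FPKM in NSCT 1 to 3, against 136, 160 and 161 FPKM in SKOV3 HD 1 to 3. Of 33 rows of small nuclear, nucleolar and structural RNAs, which normally lack a poly(A) tail, 18 were listed at 0 in every tumor. RN7SL1, RN7SK, RMRP and RPPH1 were among these, and since every cell uses them, a gene listed at 0 here need not be unexpressed. In contrast, RN7SL2 had a mean of 55.7 FPKM, SNORD17 7.52, SNORA73B 6.19 and SCARNA13 4.45 FPKM.

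**Figure D1:**
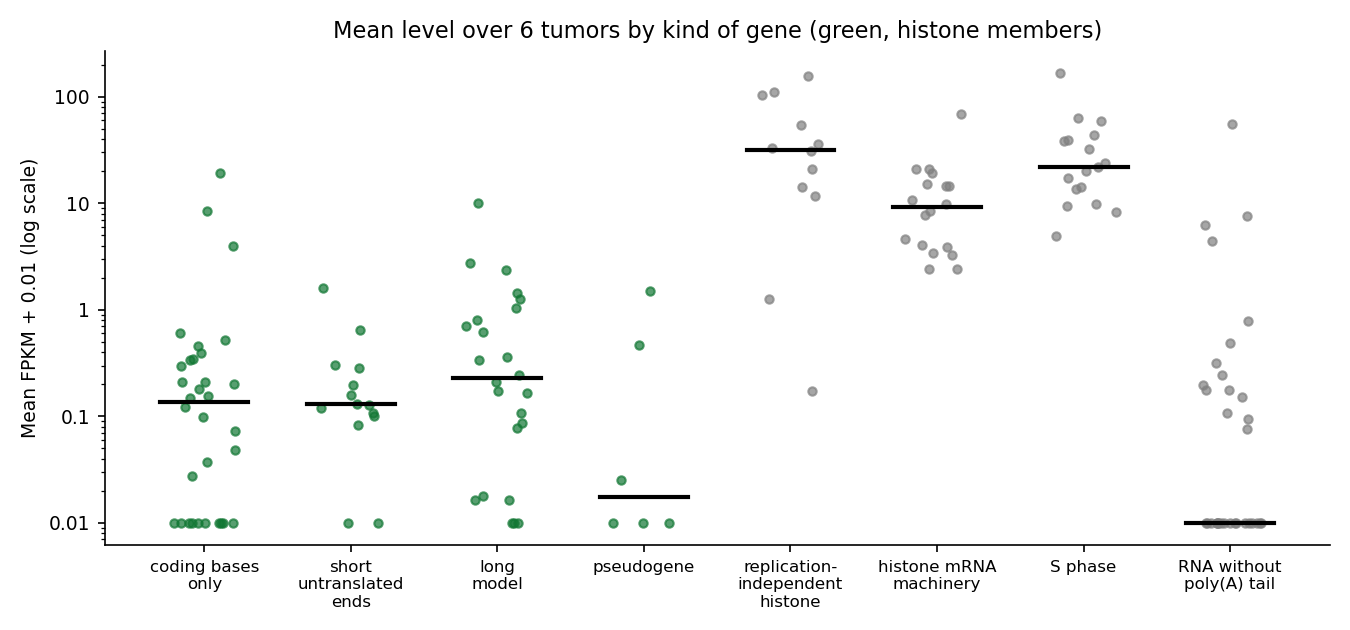
Mean FPKM over the 6 tumors plus 0.01, on a log axis, for 76 histone members split by gene model (green) and for 4 other lists (gray), with 1 point per gene and a black line at each median. Most members lie under 1 FPKM, while the replication-independent histone genes, with a median of 31.8 FPKM, lie mostly above 10 FPKM, and points at 0.01 are genes listed at 0.

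Histone types could be set against their replication-independent counterparts on the FPKM scale, which is per exon length. Summed over protein-coding genes alone, the 14 H3 members reached 3.84 ± 0.787 FPKM in NSCT (SD over 3 tumors), against 3.12 ± 0.457 FPKM in SKOV3 HD, and the 4 H3 variant genes 185 ± 12.3 and 169 ± 12.1 FPKM. The H3 members were therefore 2.04% ± 0.436 of the summed H3 level in NSCT and 1.80% ± 0.143 in SKOV3 HD. For H2A the same share was 5.18% ± 0.691 and 5.45% ± 0.646, and for H1 it was 14.4% ± 1.93 and 12.7% ± 3.56. The shares overlapped between groups in all 3 types. For H2B and H4 no variant gene was listed. The summed level of the 18 protein-coding H2B members was 24.6 ± 6.32 FPKM in NSCT, against 26.0 ± 1.99 FPKM in SKOV3 HD. H4 members summed to 3.83 to 4.74 FPKM in the NSCT tumors and 5.27 to 5.91 FPKM in the SKOV3 HD tumors, without overlap. These sums rest partly on few fragments in short models. In SKOV3 HD 2, 5 fragments of HIST1H4D gave 1.10 FPKM, and in SKOV3 HD 3, 8 fragments of HIST1H4A gave 1.66 FPKM. In NSCT 1 to 3 HIST1H4D had 1, 0 and 1 fragments and HIST1H4A 2, 1 and 1. Counted per 1000000 fragments of the library, where long models weigh more, H4 members overlapped between groups, at 5.04 to 7.29 in NSCT and 6.63 to 7.27 in SKOV3 HD.

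The number of members detected, those with at least 1 fragment in a tumor, was close between groups. It was 41, 40 and 41 of 76 in NSCT 1 to 3, or 53.9%, 52.6% and 53.9%. In SKOV3 HD 1 to 3 it was 42, 43 and 43, or 55.3%, 56.6% and 56.6%. The groups did not overlap and their means differed by 2.00 members. Over all 58735 genes the number detected moved the same way, from 22845 to 22963 genes in NSCT to 23651 to 23762 in SKOV3 HD, a mean of 39.0% against 40.4%. Scaled down to the smallest library, the expected number of members detected was 41.0, 39.4 and 40.8 in NSCT and 41.8, 42.6 and 42.2 in SKOV3 HD. With at least 5 fragments required, the groups overlapped, at 19, 20 and 25 members in NSCT and 23, 23 and 25 in SKOV3 HD. With at least 10 they overlapped too, at 17, 18 and 17 members in NSCT and 15, 19 and 19 in SKOV3 HD. No p is given, because the number detected is a score over the members.

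Which members made the difference was a matter of few fragments. In all 6 tumors 24 members were detected, or 31.6%, against 30.9% of all genes. Among protein-coding genes alone it was 31.4% of the members, against 68.6% of all protein-coding genes. A set of 7 members had fragments in SKOV3 HD tumors alone and 3 in NSCT tumors alone, against 3453 and 2404 of all genes. Among the 41 members with fragments but too few for the test, the SKOV3 HD tumors lay all above the NSCT tumors in 2 and all below them in 2, against 3.34% and 2.25% of the 15477 genes of that kind. These 4 are named because their groups did not overlap, after their values were seen. HIST1H2BO, an H2B gene, had 0, 2 and 3 fragments in NSCT 1 to 3 and 5, 4 and 6 in SKOV3 HD 1 to 3. HIST2H2AA4, an H2A gene, had 0, 0 and 0 fragments in NSCT and 1, 2 and 3 in SKOV3 HD. On the lower side, the H3 gene HIST1H3B had 2, 5 and 6 fragments in NSCT and 0, 1 and 2 in SKOV3 HD, and HIST1H3F had 1 fragment in each of 4 tumors and 0 in SKOV3 HD 1 and 2. In HIST1H3B and HIST1H3F the lowest NSCT and highest SKOV3 HD tumor held the same number of fragments, and only the library scaling kept them apart.

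Summed over members, histone fragments per 1000000 were 52.0, 66.1 and 58.5 in NSCT 1 to 3. In SKOV3 HD 1 to 3 they were 57.6, 61.1 and 68.2. The groups overlapped, with means of 58.9 ± 7.04 and 62.3 ± 5.41 (SD, n = 3 tumors). In bulk tumors the number of cells that make histone mRNA and the mRNA per cell cannot be told apart. The Wilson 95% interval ran from 48.3 to 56.0 in NSCT 1, the lowest tumor, and from 64.2 to 72.5 in SKOV3 HD 3, the highest. These intervals cover counting error within a library and not the spread between tumors, so they do not compare the groups. The log2 ratio of the groups was 0.08 and became -0.0011 without NSCT 1.

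**Figure D2:**
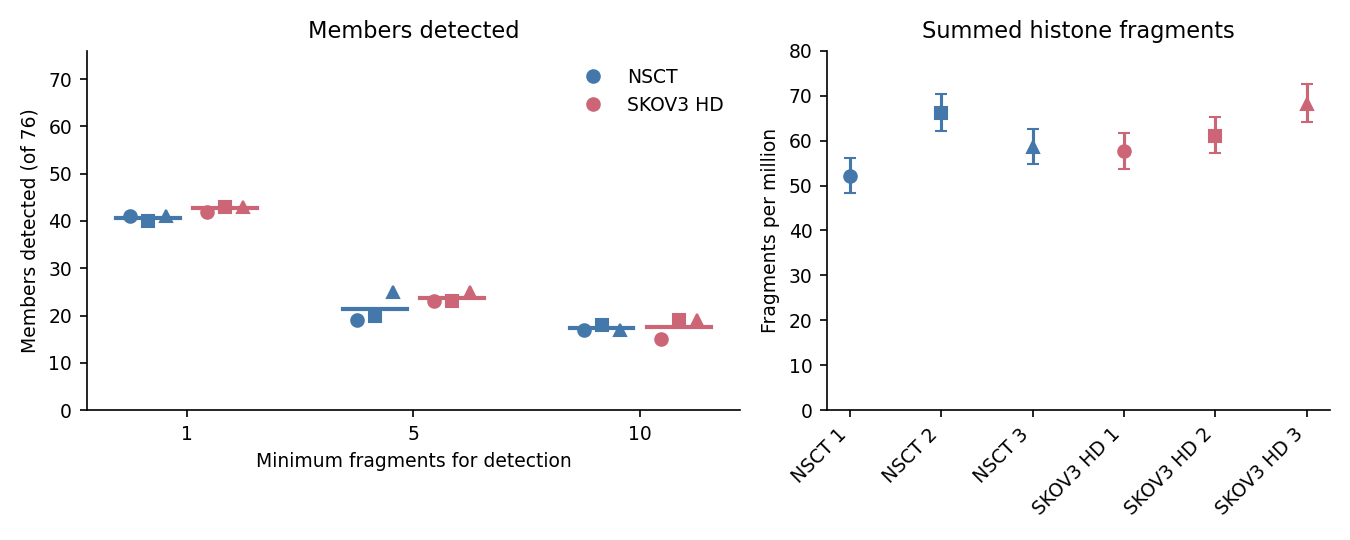
Left, the number of the 76 members with at least 1, 5 or 10 fragments in each tumor, with bars at group means. Right, histone fragments per 1000000 fragments in each tumor with Wilson 95% intervals, which cover counting error within a library only. At 1 fragment the group means differ by 2 members and the groups do not overlap. They overlap at 5 and at 10 fragments, and in the summed fragments.

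For the members with enough fragments, limma compared the groups on log2(FPKM + 0.1), over the 15136 genes for which 3 or more libraries held 10 or more fragments. Only 17 of the 76 members entered this test. None passed at a Benjamini-Hochberg adjusted p under 0.05, where 0% of all genes passed, and limma-voom on the recovered fragments gave 0 as well. At an unadjusted p under 0.05 there was 1 member of 17, against 5.73% of all genes. None of the 17 was higher in every SKOV3 HD tumor, against 5.77% of all genes tested, and none was lower in every SKOV3 HD tumor, against 7.02%. The log2 fold change, SKOV3 HD over NSCT, was above 0 in 11 and below 0 in 6, with a median of 0.06 against 0.0005 over all genes tested. Of all genes tested, 7579 lay above 0 and 7557 below. The members ranged from -0.62 to 0.48, so no tested member reached 2-fold. The pseudocount of 0.1 understates the fold change of low genes.

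The highest member was HIST1H2BK, which encodes an H2B, on chromosome 6 from 27146418 to 27146798. It stood at 12.9, 23.9 and 19.4 FPKM in NSCT 1 to 3, against 17.4, 19.6 and 21.5 FPKM in SKOV3 HD 1 to 3. NSCT 1 was low and the groups overlapped, with a log2 fold change of 0.10 ± 0.21 (standard error, limma adjusted p = 0.925). Without NSCT 1 its sign turned, to -0.15. Its model is 381 coding bases, so fragments past the coding bases are not in its value.

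HIST1H1C, which encodes a linker histone H1 of body cells, was the only H1 member in the test. It stood at 5.15, 11.6 and 10.8 FPKM in NSCT, against 7.86, 6.39 and 9.35 FPKM in SKOV3 HD. The groups overlapped, with NSCT 1 again lowest, and the log2 fold change was -0.15 ± 0.30 (limma adjusted p = 0.918). Without NSCT 1 it was -0.52. The other H1 genes of dividing cells stayed under the test's limit. HIST1H1E had 3 to 16 fragments a tumor, HIST1H1D 2 to 5 and HIST1H1B 0 to 2.

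Among H2A members, HIST3H2A led at 8.87, 11.6 and 8.88 FPKM in NSCT, against 10.7, 8.79 and 11.1 FPKM in SKOV3 HD. It overlapped between groups, with a log2 fold change of 0.07 ± 0.15 (limma adjusted p = 0.927). The stem-loop printed above for this gene is followed by 390 further bases in its model, whose end holds a poly(A) signal. HIST2H2AC lies on chromosome 1 from 149886975 to 149887364 and was the member with an unadjusted limma p under 0.05 (adjusted p = 0.803). It stood at 4.52, 4.78 and 4.73 FPKM in NSCT, against 2.59, 2.28 and 4.63 FPKM in SKOV3 HD. SKOV3 HD 1 and 2 were low and SKOV3 HD 3 lay within the NSCT range, so the groups overlapped. The log2 fold change of -0.62 ± 0.25 rests on 13 to 28 fragments a tumor, and without SKOV3 HD 3 it was -0.92. HIST1H2AC stood at 2.42 to 3.14 FPKM in NSCT, against 2.62 to 3.02 FPKM in SKOV3 HD, a log2 fold change of 0.08 ± 0.17. HIST1H2AG had 0.092 FPKM in NSCT 2 and 0.274 to 0.513 FPKM elsewhere, so its 0.42 ± 0.40 rested on NSCT 2 and was -0.0066 without that tumor.

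H2B members were the most numerous in the test, 8 of 17, with 4 above 0 and 4 below 0. HIST1H2BC, on chromosome 6 from 26114873 to 26123926, stood at 1.76, 1.49 and 2.21 FPKM in NSCT, against 1.73, 1.23 and 1.08 FPKM in SKOV3 HD. Its groups overlapped through SKOV3 HD 1, with a log2 fold change of -0.42 ± 0.24 (limma adjusted p = 0.803). HIST1H2BD stood at 1.01 to 1.22 FPKM in NSCT, against 1.19 to 1.49 FPKM in SKOV3 HD, a log2 fold change of 0.23 ± 0.19. HIST1H2BH was at -0.33 ± 0.25 with 8 to 15 fragments a tumor. HIST2H2BE and HIST1H2BN, outside the naming rule but part of the 17, were at -0.02 ± 0.29 and -0.01 ± 0.26.

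A pair of tested H2B entries are pseudogenes that overlap on opposite strands of chromosome 1. HIST2H2BC held 110 to 162 fragments a tumor on a model of 6440 bases, the most of any member over the 6 tumors together, and stood at 1.39 to 1.59 FPKM in NSCT, against 1.23 to 1.72 FPKM in SKOV3 HD. HIST2H2BD stood at 0.285, 0.535 and 0.295 FPKM in NSCT, against 0.479, 0.701 and 0.465 FPKM in SKOV3 HD, with a log2 fold change of 0.48 ± 0.28. They share 1989 exon bases, and without a stated strand setting their fragments there cannot be told apart. Together the 6 pseudogenes held 18.7% of all member fragments.

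Of the H3 members 2 entered the test, and 2 of the H4 members. HIST1H3H stood at 1.23 to 1.55 FPKM in NSCT, against 1.22 to 1.67 FPKM in SKOV3 HD, a log2 fold change of 0.06 ± 0.20. HIST1H3E, the other tested H3 gene, was at 0.31 ± 0.29, and at 0.0608 without NSCT 3. HIST1H4I, on chromosome 6 from 27138588 to 27139881, stood at 2.22, 2.88 and 1.32 FPKM in NSCT, against 2.45, 2.75 and 2.44 FPKM in SKOV3 HD. NSCT 3 was low and the SKOV3 HD tumors lay within the range of the NSCT tumors, for a log2 fold change of 0.31 ± 0.27 (limma adjusted p = 0.823). Without NSCT 3 it was 0.0098. HIST4H4, which lies alone on chromosome 12, was at 0.06 ± 0.26.

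**Figure D3:**
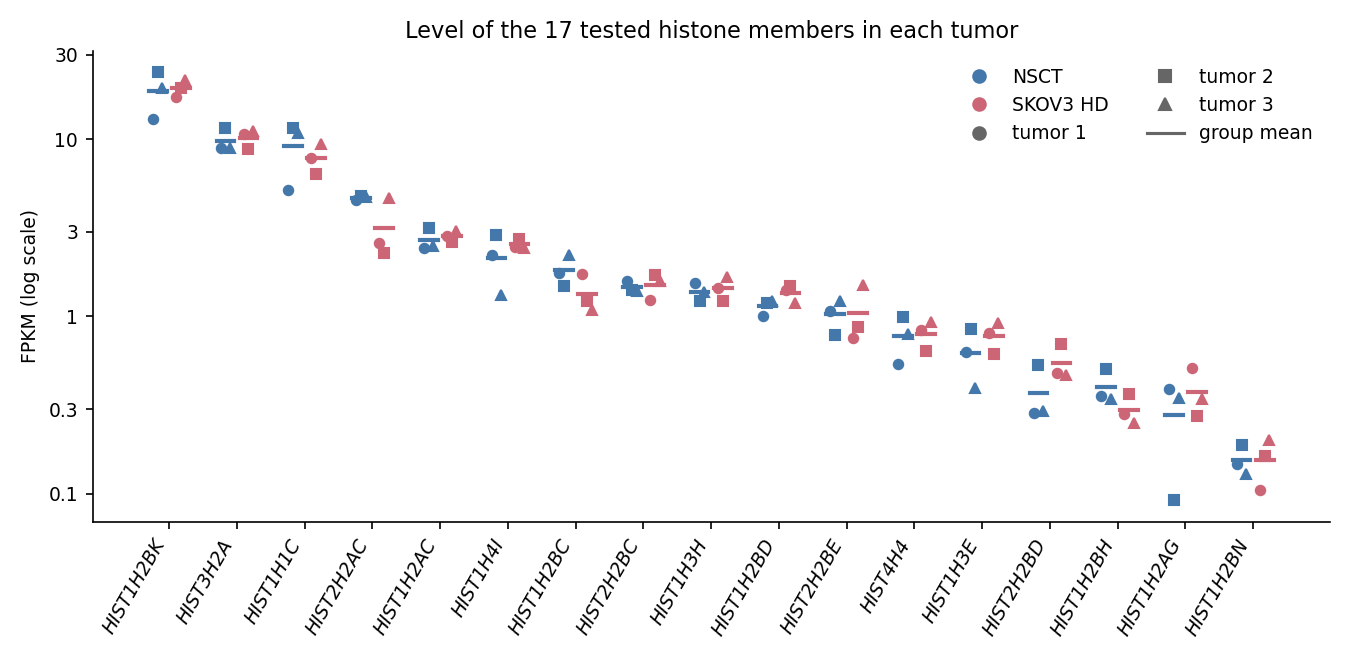
FPKM of the 17 tested members in each tumor on a log axis, with circles, squares and triangles for tumors 1, 2 and 3 of each group and bars at group means. HIST1H2BK, HIST3H2A and HIST1H1C are highest, and the groups overlap in all 17.

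**Figure D4:**
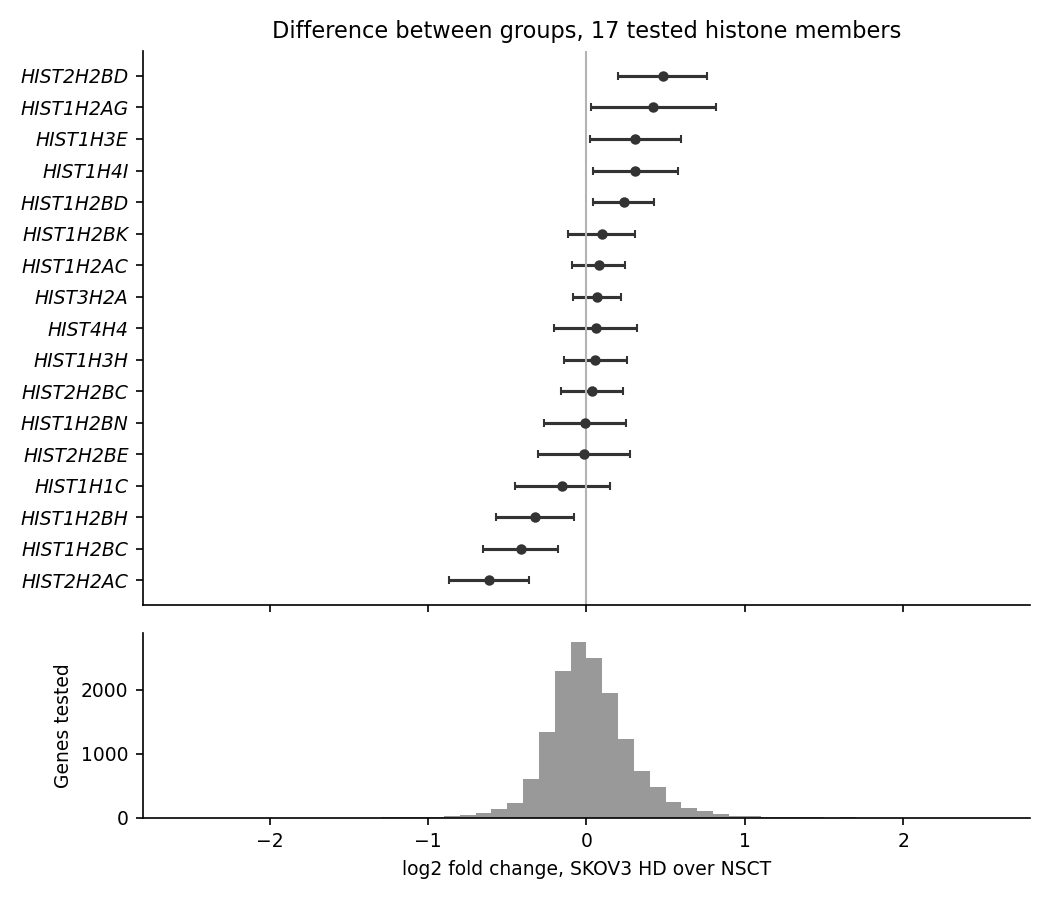
Top, the log2 fold change with its standard error for each of the 17 tested members. Bottom, the same measure over all 15136 genes tested, as a histogram with bins of 0.1. The members run from -0.62 for HIST2H2AC to 0.48 for HIST2H2BD, on either side of 0.

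Histone genes of different types often lie head to head, with a short stretch between their start sites. Within a limit of 1000 bases between gene models there were 11 such H2A and H2B pairs, with gaps of 218 to 330 bases. Where a model holds coding bases alone, the gap is counted from the coding bases and not from the start site. The partners often differed in level. HIST3H2A had a mean level of 9.99 FPKM over the 6 tumors and its partner HIST3H2BB, a gene chosen after its values were seen like the pairs that follow, one of 0.0685 FPKM. HIST1H2BK was at 19.1 FPKM and its partner HIST1H2AH at 0.326 FPKM. HIST1H2BC and HIST1H2AC were nearer to each other, at 1.58 and 2.76 FPKM, as were HIST2H2BE and HIST2H2AC at 1.04 and 3.92 FPKM. Both partners were detected in all 6 tumors in 4 of the 11 pairs, and in 3 pairs at least 1 partner had no fragment. The partners had the same kind of gene model in 6 of the 11 pairs. HIST3H2A and HIST3H2BB both run past the stem-loop, and HIST1H2BK and HIST1H2AH both hold coding bases alone. HIST1H2BJ, an H2B gene paired with HIST1H2AG, had 1, 16 and 6 fragments in NSCT 1 to 3 and 9, 7 and 12 in SKOV3 HD 1 to 3.

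The near-identical gene pairs HIST2H2AA3 and HIST2H2AA4, HIST2H3A and HIST2H3C, and HIST2H4A and HIST2H4B held 21 fragments in all and at most 5 in a tumor. Fragments that match both copies can be lost or split in counting, and the sources used here do not give the setting, so these low values are uncertain.

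The variant histones and the genes that make, process and load histones were read from the same limma test, from lists chosen for this comparison, and 0 of their members passed. Of 11 tested replication-independent histone genes, 6 were above 0 and 5 below, with a median of 0.01. H2AFZ, the H2A.Z variant of promoters, stood at 196, 162 and 151 FPKM in NSCT, against 126, 150 and 160 FPKM in SKOV3 HD, a log2 fold change of -0.22 ± 0.14. H3F3A, an H3.3 gene, was at -0.18 ± 0.10 and H2AFV at -0.21 ± 0.13. H2AFJ, an H2A variant, was the exception in size at 0.86 ± 0.34 (limma adjusted p = 0.803), with 0.482, 0.781 and 1.501 FPKM in NSCT, against 1.55, 1.55 and 1.71 FPKM in SKOV3 HD.

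Of 18 tested genes of histone mRNA transcription, processing and decay, 13 were below 0 and 5 above, against 7557 below 0 of all 15136 genes. The median was -0.16 against 0.0005 over all genes. In 8 of the 18 the SKOV3 HD tumors lay all below the NSCT tumors, against the 7.02% of all genes given above. The summed level of the list was 252, 244 and 234 FPKM in NSCT 1 to 3, against 217, 232 and 232 FPKM in SKOV3 HD 1 to 3. The groups did not overlap, though NSCT 3 lay close to SKOV3 HD 2 and 3. The sum was highest in NSCT 1 and lowest in SKOV3 HD 1. Without these 2 tumors, which stood apart on the first component, 13 of the 18 were still below 0, against 7872 of all 15136 genes. The median of the 18 was then -0.06 against -0.01 over all genes, and 9 were lower without overlap, against 19.5% of all genes. ERI1, a nuclease that trims the stem-loop end, was at 10.1, 9.20 and 8.50 FPKM in NSCT, against 6.35, 8.19 and 8.24 FPKM in SKOV3 HD, a log2 fold change of -0.29 ± 0.14 (limma adjusted p = 0.803). CPSF3, the nuclease that cuts the pre-mRNA end, was at -0.20 ± 0.10, its partner CPSF2 at -0.20 ± 0.12 and CCNE2, a cyclin of S-phase entry, at -0.36 ± 0.20. SLBP, named here for its role, stood at 81.6, 69.3 and 69.6 FPKM in NSCT, against 60.6, 68.3 and 67.1 FPKM in SKOV3 HD, lower in every SKOV3 HD tumor, at -0.17 ± 0.11.

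Of 15 tested histone chaperones, 13 were below 0, against 7557 of all 15136 genes tested. The chaperones had a median of -0.10, and none was apart between groups. NAP1L1, a carrier of H2A and H2B, was at -0.29 ± 0.12, ANP32E, which removes H2A.Z, at -0.34 ± 0.14, SUPT16H, a subunit of FACT, at -0.15 ± 0.11 and NASP, a carrier of H3 and H4, at -0.17 ± 0.13. Of 17 S-phase genes, 12 were below 0, with a median of -0.05 and all groups overlapping. Without NSCT 1 and SKOV3 HD 1 the S-phase genes turned, with 6 below 0 and 11 above and a median of 0.05. In that setting 11 of the 15 chaperones stayed below 0, with a median of -0.04, against 7872 of all 15136 genes. PCNA was at -0.23 ± 0.14, TYMS at -0.28 ± 0.20, CDT1 at 0.16 ± 0.12 and MCM4 at -0.14 ± 0.11. MCM2 belongs to both of these lists.

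RNAs that normally have no poly(A) tail were read as a second check on what the libraries hold, and 4 of 33 rows could be tested. RN7SL2, an RNA of the signal recognition particle, stood at 22.5, 42.3 and 18.4 FPKM in NSCT, against 70.9, 86.0 and 94.0 FPKM in SKOV3 HD, a log2 fold change of 1.67 ± 0.28 (limma adjusted p = 0.518). Its fragments may be shared with near-identical copies. The other tested RNAs lay at -0.75 ± 0.35 for SNORD17, -0.66 ± 0.35 for SCARNA13 and 0.05 ± 0.26 for SNORA73B.

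Markers of the cell types in the tumors are given beside these values. All 8 duct epithelium markers were tested, their summed level was 1952 to 2431 FPKM in NSCT, against 2107 to 2764 FPKM in SKOV3 HD, and KRT19 and KRT8 were at 0.24 ± 0.18 and 0.14 ± 0.19, MUC1 at 0.56 ± 0.20 and TFF1 at -1.24 ± 0.65. Of 10 genes listed as markers for the injected cells, 5 could be tested and all 5 lay above 0, with KRT7 at 1.65 ± 0.56, WT1 at 0.55 ± 0.31, FOLR1 at 0.49 ± 0.15 and PAX8 at 0.45 ± 0.23. The list was not checked in SKOV3 cells alone, which are not among the samples. Saline tumors expressed some of these genes too, with FOLR1 at 3.88 to 5.15 and PAX8 at 0.757 to 1.16 FPKM in NSCT. The 10 genes summed to 16.5 to 34.4 FPKM in NSCT, against 27.2 to 41.0 FPKM in SKOV3 HD, and most of this sum was MSLN, at 11.1 to 27.3 FPKM in NSCT. MUC16 was at 0 in every tumor but 1 and ESR1 likewise. VIM, with too few fragments for the test, was at 0.0855, 0.0401 and 0.0963 FPKM in NSCT, against 1.26, 0.0663 and 3.62 FPKM in SKOV3 HD, high in SKOV3 HD 1 and 3. KRT7 was highest in the same 2 tumors, at 1.67 and 4.495 FPKM, against 0.719 FPKM in SKOV3 HD 2 and 0.359 to 0.693 FPKM in NSCT. The injected cells are human and carry the same histone genes, and their part in the histone values was not tested. NSCT 1 was the lowest tumor in 6 of the 17 tested members, or 35.3%, against 28.2% of all genes tested.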

How the data were processed

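RNA-seq libraries were made from poly(A) RNA of 6 tumors, 3 per group. Per the submitters' processing notes, the tools were HISAT2 2.0.5 and featureCounts 1.5.0-p3, and the genome build hg38. DESeq2 was the authors' test of differential expression. The authors deposited 1 table of FPKM per tumor. Not given in the sources used here are the strand setting, the handling of fragments shared between genes and that of mouse reads. Gene models came from GENCODE release 29, to which 100% of gene IDs matched. In each library, FPKM times exon length came in whole multiples of a single step for 100% of values (tolerance 0.01), which gave the fragments behind each value, 13585284 to 15258633 per library. The steps match a median-of-ratios scaling. Every 2 libraries differed by more than sampling noise (chi-square of 10.1 to 44.6 per degree of freedom).

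Genes with at least 10 fragments in at least 3 libraries entered a fit with limma 3.58.1 under R 4.3.3 (functions lmFit and eBayes, trend on) of log2(FPKM + 0.1), condition as the only term, Benjamini-Hochberg over 15136 genes. With 3 tumors a group, p-values measure the spread between these tumors, and a single-value exact permutation test could not go below 0.10, so none was run. Counts of members, numbers detected and sums carry no test. Summaries used pandas 2.3.3, NumPy 2.4.6 and SciPy 1.17.1 under Python 3.11.15. Plots used Matplotlib 3.10.9. The fit was tested on simulated data. A poly(A) signal was searched as AATAAA or ATTAAA in the last 50 bases of a transcript. Gene models over 850 bases are called long in the plot of levels by gene model.

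Named members were the 10 with the highest mean FPKM, the 10 tested with the smallest unadjusted p and 3 near-identical pairs, and of each other list up to 4 with the smallest p. Other genes are named for their role or after their values were seen. The members and lists were chosen with earlier results of these data known. Alternatives covered the pseudocount, the filter, the scaling, limma-voom, a replicate block, leaving out each tumor and the detection limit.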

Additional observations from a re-analysis of the deposited data

How the results depend on the processing

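No tested member was called under any of the 13 alternatives. The one restricted to protein-coding members is the main fit read over fewer members, so its 0 was fixed in advance. The median log2 fold change of tested members, 0.06, ran from -0.0033 without SKOV3 HD 3 to 0.14 without SKOV3 HD 1, and reached 0.13 over 58 members without the filter. The number detected differed by 1.67 to 2.33 members over the tumors left out, and by 0.333 with at least 10 fragments. The log2 ratio of summed fragments ran from -0.0011 to 0.17 over the tumors left out. Signs of single members turned when 1 tumor was left out: HIST1H1C (-0.52 to 0.0558), HIST1H2AG (-0.0066 to 0.67), HIST1H2BK (-0.15 to 0.29), HIST1H3H (-0.0451 to 0.17) and HIST2H2BC (-0.0598 to 0.17). Without turning, HIST1H3E ran from 0.0608 to 0.53, HIST1H4I from 0.0098 to 0.55, HIST2H2BD from 0.18 to 0.71 and HIST1H2BH from -0.44 to -0.11 over all alternatives. The alternative restricted to protein-coding members was chosen after seeing the data and left the median at 0.06. Whether replicate numbers pair the tumors could not be settled with 3 tumors a group. Correlations of deviations were -0.14, -0.19 and -0.13 for same-numbered tumors and -0.04 to 0.20 for the others. With a replicate block 0 members were called. The median stayed at 0.06, which the balanced design fixes in advance. Too few fragments for the test were found in 59 members, and the smallest difference that could be detected in them was not computed. The counts of the other gene lists without NSCT 1 and SKOV3 HD 1 were also chosen after seeing the data.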

Other observations

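The 14 rows of the same families with pseudogene endings, which entered no comparison, held 12 fragments in the 3 NSCT tumors and 2 in the 3 SKOV3 HD tumors, and 8 of the 14 were at 0 in every tumor.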
